A study of Mus musculus with 10 samples.

Results

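Of the 6094 broad H3K27me3 regions called in duodenal organoids kept in differentiation medium (ENRI), 2643 were short, lay far from every annotated transcription start site (TSS) and had no called counterpart in stem cell medium (WENRC). The rule took regions shorter than 10000 bp, more than 5 kb from the TSS of every transcript in the nascent RNA table, with not 1 bp in any broad or narrow WENRC region. Inside a gene body lay 918 of the 2643, or 34.7% (exact 95% binomial interval 32.9 to 36.6%), and 1725 lay between genes. The share inside was 31.7% for distal regions called only in WENRC and 31.9% for distal ENRI regions that WENRC also called. It was 51.9% for all broad ENRI regions. The members were selected on the H3K27me3 calls of both media, so their ChIP tags, their fold over input and their absence from the WENRC lists are given as a description and were not tested.

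The organoids were grown in Matrigel from mouse duodenum. WENRC holds Wnt3A, EGF, Noggin, R-spondin and the GSK3 inhibitor CHIR-99021. ENRI keeps EGF, Noggin and R-spondin, lacks Wnt3A and CHIR-99021, and contains IWP-2, which blocks Wnt secretion. The labels call the WENRC cells intestinal stem cells and the ENRI cells enterocytes; strain, sex and age are not given in the sources used here. H3K27me3 ChIP-seq had 1 library per medium with its own input, and nascent RNA was profiled by global run-on (GRO-seq) in 2 libraries per medium, from 2 mice by the labels and 2 batches by the table header.

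Trimethylation of histone H3 at lysine 27 is written by Polycomb repressive complex 2 through its catalytic subunits Ezh2 and Ezh1. The mark is best known over CpG-rich promoters of silent developmental genes, where it forms wide domains. It is also found more thinly between genes and in the bodies of untranscribed genes, and at distal regulatory elements that are held inactive. In the intestine, Wnt signalling maintains the Lgr5-expressing stem cells at the crypt base, and its withdrawal lets cells become enterocytes or secretory cells.

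Some marker gene sums differed between the media in bulk RNA, where fewer cells of a type and less RNA per cell cannot be told apart. Summed GRO-seq levels of 21 stem cell genes were 65.9 and 82.9 RPKM in WENRC and 24.6 and 14.4 RPKM in ENRI. Summed levels of 28 enterocyte genes were 76.0 and 41.9 RPKM in WENRC and 687 and 1011 RPKM in ENRI. The sums for 10 goblet genes were 10.7 and 8.30 RPKM against 47.1 and 31.3 RPKM. The media overlapped for 7 Paneth genes, at 24.4 and 43.6 RPKM in WENRC and 15.3 and 40.5 in ENRI. They also overlapped for 17 enteroendocrine genes, at 8.62 and 10.9 against 8.74 and 15.3 RPKM. The 9 immune genes in the table summed to 13.6 and 17.1 RPKM in WENRC and 5.83 and 5.93 in ENRI; 12 mesenchymal genes stayed between 1.12 and 1.79 and 6 endothelial genes at or under 0.164 RPKM in every library, with 1 mesenchymal gene at 0 throughout. The part of such cell mixtures in the regions below was not tested.

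Most members had the smallest size that the broad search allows. The median size was 1000 bp, that minimum, and 1911 members (72.3%) had exactly that size; the longest measured 7330 bp. All members together covered 3.15 Mb. A member held a median of 41 ChIP tags, or 13.7 tags per 10000000 (10.1 to 92.8), where the threshold stood at 32 tags or 10.7 per 10000000 in the best window. The best window held exactly 32 tags in 584 members.

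The density of tags hardly differed among members, so that the strong ones were the long ones. Members had a median of 13.1 normalized tags per kb, from 9.50 to 22.1, and 6 of 2643 reached 20 per kb. The median density before normalization was 39 ChIP tags per kb, 3.07 times the mean of 12.7 tags per kb that the list header gives for the genome. The 9 members of 5000 bp or more held 65.7 to 92.8 normalized tags at folds of only 4.15 to 5.23. Of the 23 members with at least 50 normalized tags, 5 lay inside a gene body.

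Fold over input, the authors' own value for each region, had a median of 4.78 against the limit of 4 set in the search. It was under 5 in 1543 members (58.4%), at least 6 in 457 (17.3%) and at least 10 in 40. The input counted a median of 8 tags per member (1 to 59), or 7 per kb. That is below the 11.6 tags per kb that the genome mean gives at input depth, and 2630 of 2643 members lay under this mean. The limit of 4 on the fold bounds the input of a called region, so these values follow largely from the selection. The part of low input in the calls was not tested.

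Counting error limited each fold. The median lower and upper 95% bounds were 2.27 and 11.7, and 21 members had a lower bound at or above 4. All 40 members with a fold of 10 or more held at most 5 input tags and at most 60 ChIP tags. The highest fold, 33.7, belonged to a region 35.9 kb from the start of the non-coding gene C130060C02Rik and rested on 37 ChIP tags over 1 input tag (interval 5.68 to 1365). A region 11.9 kb from the start of Apoa4, an apolipoprotein gene of enterocytes, had a fold of 16.8 from 37 ChIP tags over 2 input tags (4.34 to 144).

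Distal regions called only in WENRC numbered 1012 and had a median of 14.0 normalized tags and a median fold of 4.73, with 73.9% at exactly 1000 bp. The 1281 distal ENRI regions that WENRC also called were stronger and longer, with a median of 18.8 normalized tags and 40.9% at 1000 bp, at a median fold of 4.75. With 1 library per medium there is no replicate check of any of these differences.

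**Figure D1:**
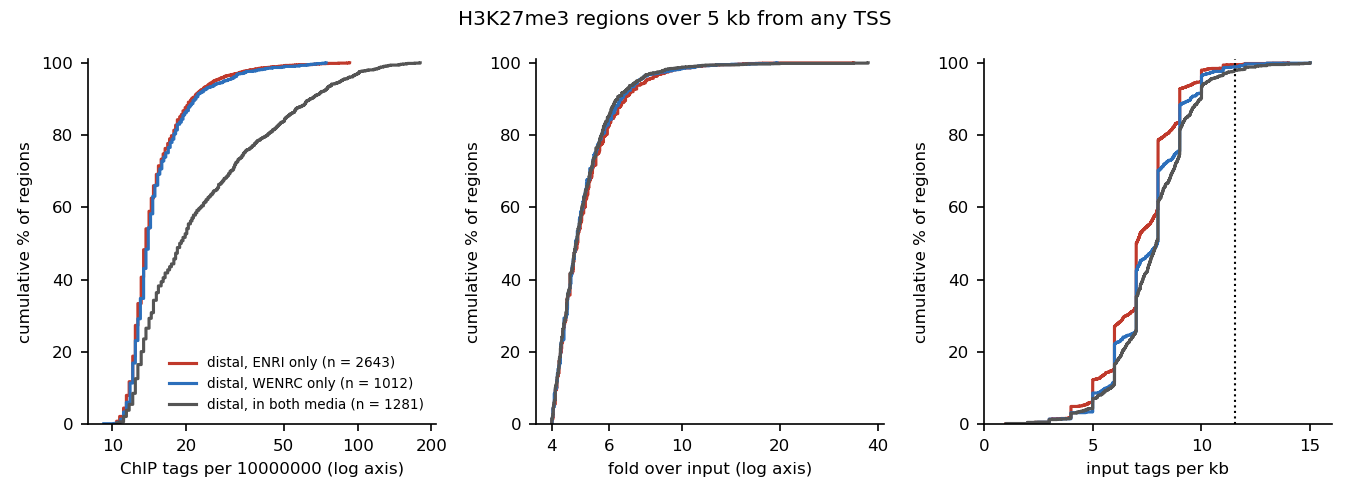
Cumulative percentage of distal H3K27me3 regions by normalized ChIP tags (left), by fold over input (middle) and by input tags per kb (right), for regions called in ENRI only, in WENRC only and in both media. The ENRI-only and WENRC-only curves run together in tags while the shared regions reach further right, and the fold curves overlap. Nearly all regions lie left of the dotted line at 11.6 input tags per kb, where the fold limit of the search bounds the input.

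The regions with most tags lay at few known intestinal genes. The strongest held 92.8 normalized tags (277 ChIP tags over 59 input tags, fold 4.27, interval 3.21 to 5.76) at chr11:108928395-108933684 (mm9), 72.0 kb from the start of the non-coding gene E030025P04Rik. The longest, 7330 bp at chr2:29393663-29400993, held 90.5 tags and had the microRNA gene Mir133c as its nearest start site, 62849 bp away. A member inside Cdcp2 and another 162 kb from the start of Myof, a membrane repair protein, held 83.4 tags each. Slc12a2, the basolateral Na-K-Cl cotransporter of crypt cells, had a member with 74.1 tags ending 71.8 kb before its start, and its GRO-seq level was 7.52 and 8.11 RPKM in WENRC and 3.88 and 1.02 in ENRI.

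Members lay a median of 40749 bp from the nearest TSS, 35394 bp for those in a gene body and 44285 bp for those between genes. The median was 39541 bp for distal WENRC-only regions and 35181 bp for shared distal regions. More than 50 kb separated 1135 members (42.9%) from any TSS, more than 100 kb separated 548 (20.7%), and 19 lay over 500 kb away. Just inside the 5 kb limit were regions 5026 bp from Tmem52, 5051 bp from Runx1 and 5052 bp from Olfr1342. Just outside it, and so left out, were regions 4973 bp from Zfp317, 4953 bp from Zfp507 and 4940 bp from Gm7534. No ENRI-only distal region came near the length limit.

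Many members without a WENRC overlap had a WENRC call close by. The median gap to the nearest WENRC region of either list was 6883 bp, 1139 members (43.1%) had one within 5 kb and 1573 (59.5%) within 10 kb. One member on chromosome 19, nearest to Tmem252, abutted a WENRC region, and members at Rora and Ccdc39 missed one by 1 bp. Only 237 (8.97%) lay more than 50 kb from any WENRC call. Of the WENRC-only regions, 71.4% had an ENRI region within 5 kb; the narrow list is longer in ENRI (55544 regions) than in WENRC (33499). The ENRI narrow list itself also held 2390 members (90.4%).

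**Figure D2:**
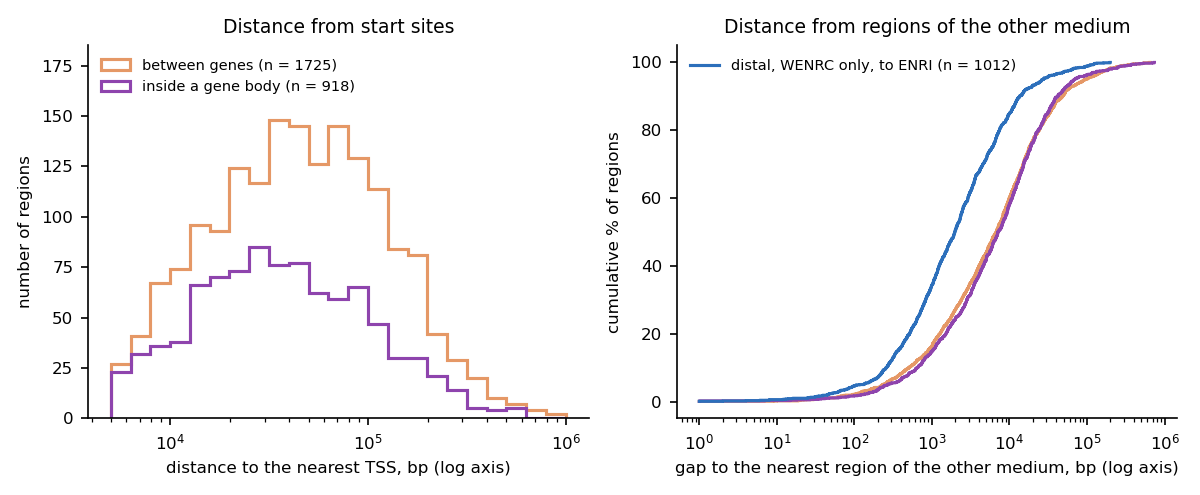
Left, number of members by distance to the nearest TSS on a log axis, for the 918 inside a gene body and the 1725 between genes. Right, in the same colours with the WENRC-only regions in blue, cumulative percentage of regions by gap to the nearest region called in the other medium, where the WENRC-only regions lie closer to ENRI calls (71.4% within 5 kb) than the ENRI-only members lie to WENRC calls (43.1%).

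For most members, no broad H3K27me3 region was called at the promoter of the nearest gene. Narrow regions were not counted at these promoters. Within 2 kb of the nearest TSS there was no broad region of either medium for 1878 members (71.1%). The share was 70.6% for distal WENRC-only regions and 70.3% for shared distal regions. A broad ENRI region lay there for 499 (18.9%) and a broad WENRC region for 650 (24.6%). Within 50 kb of an ENRI domain of 10000 bp or more lay 116 members (4.39%).

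Members were spread over all autosomes and, like the other classes of regions, nearly missing from the X. Chromosome 2 held most (244). Members made up 31.3% of the broad ENRI regions on chromosome 15 and 49.8% on chromosome 13, the lowest and highest autosomal shares. The X held 4 members among its 30 broad ENRI regions, and 2 members lay on unplaced sequence. It held 0 of 1012 distal WENRC-only regions and 7 of 1281 shared distal regions. Of all broad regions it held 0.492% in ENRI and 0.978% in WENRC.

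Members also came in chains. Joined at gaps of up to 100 kb, they formed 519 chains of at least 2 that together held 1322 members (50.0%), while 1321 stood alone. The header of the broad list gives a minimum distance of 10000 bp between regions, which limits the closest spacing. Chains were not counted for other classes, but their spacing was similar. Another broad region of the same medium lay within 50 kb for 55.2% of members, 55.1% of shared distal regions and 47.1% of distal WENRC-only regions. The largest chains had 8 members each. One spanned 197 kb at Lao1, Slc2a1 and Zfp691 (chr4:118627152-118824541), where Slc2a1 encodes the glucose transporter Glut1 and single members held 12.4 to 25.5 normalized tags. A chain at the transcriptional coregulator gene Mn1 spanned 254 kb (chr5:111866167-112120433), and one inside Thsd4 spanned 342 kb (chr9:59887369-60228883). A chain of 7 lay between Atg4c, an autophagy protease gene, and Foxd3, a neural crest transcription factor gene.

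Maf, a basic leucine zipper transcription factor gene, was the nearest gene of 12 members, more than any other gene; it was singled out after these counts were seen. They lay 22.6 to 562 kb from its start with 11.1 to 34.5 normalized tags each, between chr8:117667608 and chr8:118469458, and the Maf promoter itself was in neither broad list. Maf was transcribed at 0.393 and 0.802 RPKM in WENRC and 1.73 and 2.89 RPKM in ENRI. Both ENRI libraries were above both WENRC libraries. The limma difference on the log2(RPKM + 0.5) scale was 1.35 (SE 0.297, adjusted p = 0.0623), and in the authors' deposited table Maf was higher in ENRI by 2.24 on the log2 scale (FDR 0.00103).

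The 918 members inside gene bodies lay in 674 genes, 622 of them protein-coding, and 6 members touched more than 1 gene. Of these host genes, 518 held 1 member, 156 held at least 2, 51 at least 3 and 12 at least 5. Host genes were long, with a median of 96.0 kb against 14.1 kb for all 24016 genes. Hosts of other distal regions were long too, with medians of 107 kb for WENRC-only regions and 86.6 kb for shared ones. Host genes with at least 2 members had a median of 176 kb. The gene with most members was Thsd4, whose product helps assemble extracellular microfibrils, with 9 over 544 kb. Cdh23, a cadherin of hair cell tip links, held 7. The procollagen protease gene Adamts2, the synaptic adhesion genes Clstn2 and Sdk1, and the cyclic nucleotide phosphodiesterase gene Pde10a held 6 each.

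Genes with many members also held calls that were no members. Across Thsd4 the lists had 12 broad and 67 narrow ENRI regions against 2 broad and 26 narrow WENRC regions. In Cdh23 they had 11 and 58 against 7 and 31, and in Adamts2 7 and 18 against 1 and 3. WENRC therefore had calls in each of these bodies at other positions. Host genes of WENRC-only regions numbered 282, and 115 genes were in both sets, which is 17.1% of the ENRI-only hosts and 40.8% of the WENRC-only hosts.

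Host genes had low levels in both media. Their median level was 0.0127 and 0.0351 RPKM in the WENRC libraries of batches 1 and 2, and 0.0159 and 0.0390 RPKM in the ENRI libraries. All genes had medians of 0.394 and 0.386 RPKM in WENRC and 0.330 and 0.228 RPKM in ENRI. Over the 4 libraries, 520 host genes (77.2%) averaged under 0.1 RPKM against 38.8% of all genes, and 6 averaged at least 1 RPKM. The batch moved host medians more than the medium did: batch 2 was higher in both media.

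The same held for hosts of other distal regions. Host genes of WENRC-only regions had a median of 0.0245 RPKM over the 4 libraries and those of shared distal regions 0.0250, beside 0.0274 for the ENRI-only hosts; these were not tested against each other. Nearest genes of the members between genes, 1331 in number, had a median of 0.125 RPKM, under the 0.383 of all genes.

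**Figure D3:**
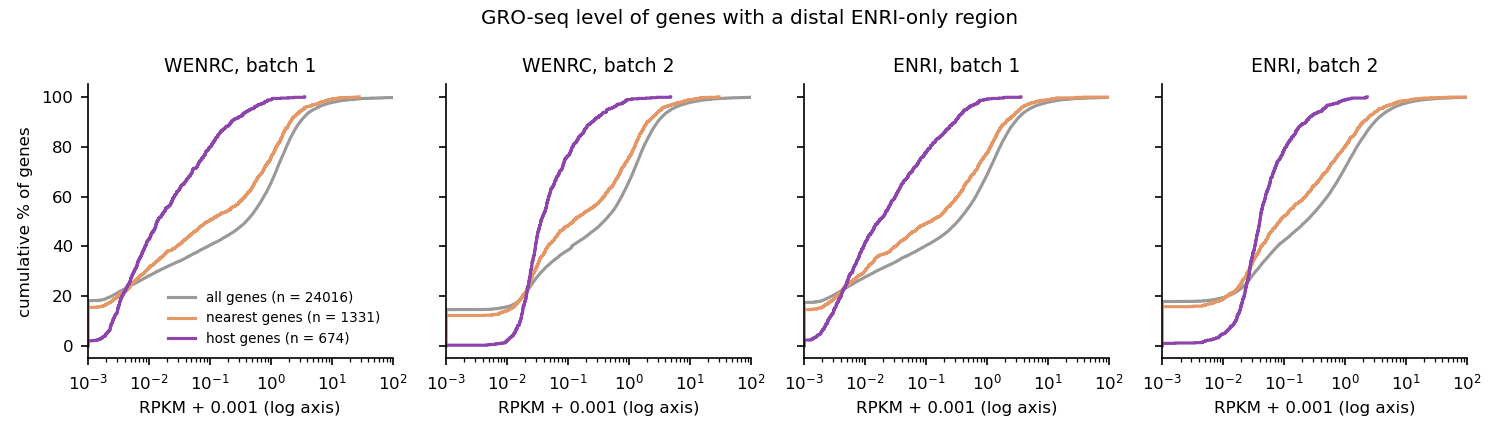
Cumulative percentage of genes by GRO-seq level in each library, on a log axis of RPKM + 0.001, for all genes, the nearest genes of members between genes and the host genes. In all 4 libraries the host genes rise furthest left, with medians of 0.0127 to 0.0390 RPKM, and in batch 2 few host genes lie under 0.01 RPKM.

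The host genes with the highest levels were few and mixed. Nfe2l3, a CNC transcription factor gene, stood at 3.63 and 4.87 RPKM in WENRC and 1.93 and 2.18 in ENRI. Shroom3, which shapes the apical actin network of epithelia, stood at 2.39 and 2.35 against 3.64 and 2.33 RPKM, so its groups overlapped. Clic4, an intracellular chloride channel family gene, overlapped too, at 1.45 and 1.92 against 1.58 and 0.402 RPKM. These genes held 1 member each while being transcribed in both media.

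Only 34 of 674 host genes (5.04%) reached 0.5 RPKM in at least 2 libraries, the filter for the test of ENRI against WENRC, compared with 48.3% of all genes. None of the 34 passed the limma test at an adjusted p of 0.05, 14 having an unadjusted p under 0.05. Among all 11602 genes tested, 0.0603% were called higher and 0.0862% lower in ENRI, and 39% had an unadjusted p under 0.05. The median log2 difference was -0.23 over these hosts and -0.21 over all genes tested. Host genes in which both ENRI libraries exceeded both WENRC libraries numbered 75 of 674, or 11.1%, with 114 (16.9%) the other way round; for all genes the shares were 15.1% and 33.4%.

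More host genes entered the fits that keep low counts. The authors' deposited table, an edgeR test with the batch as a term, had 49 host genes higher in ENRI at an FDR of 0.05 (7.27%) and 13 lower (1.93%). Over all genes in the authors' deposited table, 5.65% of genes were higher and 3.06% lower. For the hosts of WENRC-only regions the authors' deposited table gave 19 higher (6.74%) and 6 lower (2.13%) of 282. The median log2 value was 0.28 for the ENRI-only hosts, 0.31 for the WENRC-only hosts and 0.15 for the hosts of shared distal regions in the authors' deposited table, where the median of all genes is 0.

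Fits on recovered whole reads kept more host genes. With at least 10 reads in 2 libraries, chosen after seeing the data, edgeR's quasi-likelihood test with a batch block kept 588 hosts and called 16 higher and 1 lower, where 1.5% and 0.376% of all genes were called. DESeq2 on the same genes called 37 of 588 hosts higher and 10 lower. Over all 16754 genes it called 1648 higher and 637 lower. These are 11.1% and 4.3% of the 14805 genes to which it gave an adjusted p. The 588 hosts also hold genes without an adjusted p, such as Pax7, so the host counts are not shares of a like set. limma on these genes called 12 hosts higher and 5 lower, beside 3.25% and 5.65%. Relative to all genes the edgeR median of the hosts stood higher, 0.28 against -0.01 on the log2 scale. The edgeR median was 0.31 for the hosts of WENRC-only regions and 0.16 for the hosts of shared distal regions.

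Lgr5, the receptor for R-spondins that marks intestinal stem cells, was the host gene with the largest fall in the authors' deposited table. It was transcribed at 1.96 and 2.86 RPKM in WENRC and 0.194 and 0.142 RPKM in ENRI. The ENRI libraries lay far below the WENRC libraries, with 1086 recovered reads against 10592. The limma difference was -2.11 (SE 0.192, adjusted p = 0.0541), just outside the threshold, and Lgr5 was lower in ENRI by -3.59 on the log2 scale in the authors' deposited table (FDR 1.62e-12). The non-coding gene A930009A15Rik overlaps Lgr5, and the strand setting of the counts is not given in the sources used here.

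The Lgr5 member lay 25.2 kb into the gene at chr10:114998657-114999657 and held 66 ChIP tags over 14 input tags (22.1 normalized tags, fold 4.29, interval 2.39 to 8.27). That is the highest tag density of any member. The nearest WENRC region of either list was 55765 bp away. Inside Lgr5 and at its start the ENRI lists had 1 broad and 7 narrow regions, including narrow regions from 0.967 to 0.102 kb before the start and from 0.802 to 3.20 kb after it, and the WENRC lists had none. A further member lay 73.9 kb before the start with 39 ChIP tags over 8 input tags.

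Other hosts were lower in ENRI, from low levels. Esrrg, an orphan nuclear receptor gene, stood at 0.0761 and 0.132 RPKM in WENRC and 0.00720 and 0.0389 in ENRI. Ptpro, a receptor tyrosine phosphatase gene, stood at 0.0992 and 0.162 against 0.0123 and 0.0391 RPKM. Scd3, a fatty acid desaturase gene, stood at 0.360 and 0.266 against 0.0582 and 0.0747 RPKM. For each of them both ENRI libraries were below both WENRC libraries, and the authors' deposited table gave FDRs of 0.000281, 8.93e-05 and 0.00301, with log2 values of -2.33 for Esrrg and -2.28 for Ptpro. None of the 3 passed edgeR with the batch block on genes with at least 10 reads (adjusted p = 0.0734, 0.0541 and 0.0694), and by DESeq2 on those genes Esrrg did not pass (adjusted p = 0.0706).

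Cpt1c, a brain-type member of the carnitine palmitoyltransferase family, passed the filter at 0.608 and 0.887 RPKM in WENRC and 0.191 and 0.168 in ENRI (limma difference -0.87, SE 0.170, adjusted p = 0.0588). The cytokine gene Il17d stood at 0.293 and 0.289 against 0.120 and 0.0345 RPKM. In the authors' deposited table these 2 genes were lower in ENRI by -1.78 and -1.83 on the log2 scale (FDR 0.00874 and 0.0462). Il17d passed neither edgeR with the batch block (adjusted p = 0.131) nor DESeq2 (adjusted p = 0.221), both with at least 10 reads. Lgr5, Esrrg, Ptpro, Scd3, Cpt1c and Il17d held a single member each in their bodies.

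The 6 host genes with the largest rises were picked at an FDR under 0.05 in the authors' deposited table, rising in both batches. They had adjusted p from 0.0302 to 0.0482 by edgeR with the batch block on genes with at least 10 reads. That fit uses the same libraries and a like test, so it is no separate support. Slc6a3, the dopamine transporter gene, stood at 0.00831 and 0.0284 RPKM in WENRC and 0.598 and 1.28 in ENRI, with 20 and 1576 recovered reads. Slc47a1, which exports organic cations, stood at 0.00669 and 0.0281 against 0.413 and 0.910 RPKM. Both genes were near silent in WENRC and were transcribed in both ENRI libraries. In the authors' deposited table they were higher in ENRI by 6.05 and 5.68 on the log2 scale (FDR 4.56e-22 and 1.21e-19); the limma difference of Slc6a3 was 1.43 (SE 0.272, adjusted p = 0.0578), on a scale that shrinks changes of low genes, and Slc47a1 did not reach the filter.

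Slc6a3 held members 7.65 and 26.5 kb into its body with 36 and 49 ChIP tags over 8 and 9 input tags, and the nearer one lay 630 bp from a WENRC region. The body of Slc47a1 held 1 member, 10.3 kb from the start and 548 bp from a WENRC region, with 44 ChIP tags over 8 input tags. The promoters of both genes were in the broad WENRC list and not in the broad ENRI list. At Slc6a3 the WENRC region ran from 2.20 kb before to 2.54 kb after the start with 91.9 normalized tags, where ENRI had a narrow region of 10.1 tags from 0.973 to 1.87 kb. At Slc47a1 the WENRC region ran from 0.606 kb before to 2.36 kb after the start with 48.3 normalized tags, and no ENRI region of either list lay there.

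The other 4 of these genes stayed under 1.3 RPKM in every library. Sardh, the mitochondrial sarcosine dehydrogenase gene, stood at 0.0204 and 0.0477 RPKM in WENRC and 0.195 and 0.492 in ENRI. Cndp1, a carnosine dipeptidase gene, stood at 0.0841 and 0.0792 against 0.428 and 1.27 RPKM. Ggt5, a gamma-glutamyltransferase gene, stood at 0.0154 and 0.0314 against 0.124 and 0.296 RPKM. The uncharacterized 4933417A18Rik, which overlaps Eci3, stood at 0.0417 and 0.0413 against 0.400 and 0.570 RPKM. In the authors' deposited table these 4 genes were higher in ENRI by 3.35 to 3.72 on the log2 scale, with FDRs from 9.08e-11 for Sardh to 1.03e-05 for Ggt5. None of the 4 reached the filter of the main limma test. By limma on genes with at least 10 reads, Sardh, Cndp1 and Ggt5 did not pass (adjusted p = 0.0743, 0.0710 and 0.0816). In that fit 4933417A18Rik passed (adjusted p = 0.0398). Ggt5 rested on 19 recovered reads in WENRC.

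**Figure D4:**
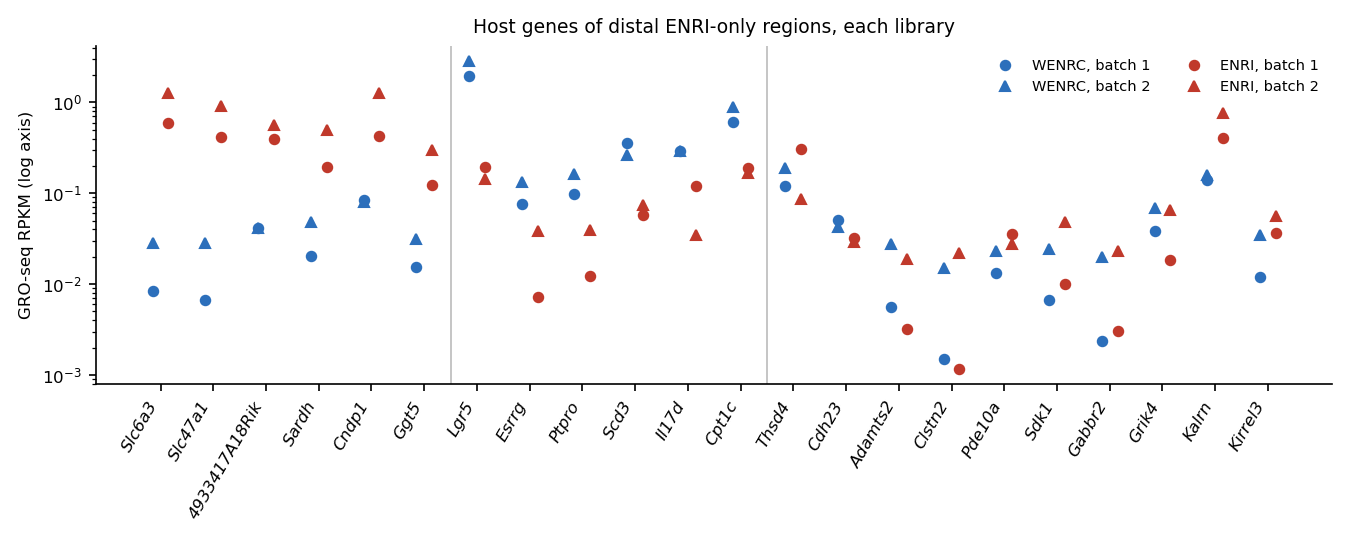
GRO-seq RPKM on a log axis of 22 host genes in each library, WENRC in blue and ENRI in red, batch 1 as circles and batch 2 as triangles. Left, the 6 hosts with the largest rises in the authors' deposited table; middle, the 6 with the largest falls, where Lgr5 drops from 1.96 and 2.86 to 0.194 and 0.142 RPKM; right, 10 of the genes with most members, where batch 2 often lies above batch 1.

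The media overlapped in several genes that held many members. Thsd4 stood at 0.122 and 0.189 RPKM in WENRC and 0.306 and 0.0864 in ENRI, so its groups overlapped. Cdh23 stood at 0.0503 and 0.0429 against 0.0318 and 0.0290 RPKM, lower in both ENRI libraries, with an FDR of 0.685 in the authors' deposited table. Adamts2, Clstn2, Sdk1 and the GABA-B receptor gene Gabbr2 stayed under 0.05 RPKM in every library.

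Kalrn, a guanine nucleotide exchange factor gene with 5 members, was higher in ENRI. It stood at 0.140 and 0.160 RPKM in WENRC and 0.407 and 0.761 in ENRI, with all ENRI values above all WENRC values. The authors' deposited table gave a log2 value of 2.14 (FDR 7.46e-05), and edgeR with the batch block an adjusted p of 0.057. Kirrel3, an adhesion gene with 5 members, was at 0.0119 and 0.0344 against 0.0366 and 0.0564 RPKM (log2 value 1.41, FDR 0.0275 in the authors' deposited table, and an adjusted p of 0.0821 by edgeR with the batch block).

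Among the nearest genes of members between genes, 499 of 1331 passed the filter and 2 passed the limma test, both higher in ENRI, beside 0.0603% of all genes tested that were called higher and 0.0862% lower. These were Reg3b and Reg3g, antibacterial C-type lectins of the intestinal epithelium. Reg3b stood at 0.0449 and 0.0418 RPKM in WENRC and 31.5 and 45.5 RPKM in ENRI (limma difference 6.14, SE 0.239, adjusted p = 0.0374). Reg3g stood at 0.148 and 0.208 against 3.66 and 3.01 RPKM (limma difference 2.50, SE 0.144, adjusted p = 0.0374). With the replicate block neither passed limma, the adjusted p of both being 0.0743. In edgeR with the replicate block both passed, at adjusted p of 0.0045 for Reg3b and 0.0173 for Reg3g. Leaving out a WENRC library, which leaves 1 in that medium, also ended both limma calls. Without WENRC replicates 1 and 2 in turn, the limma differences were 6.15 and 6.14 for Reg3b and 2.43 and 2.56 for Reg3g.

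The regions concerned were far away: 173 kb from the start of Reg3b, with 40 ChIP tags over 9 input tags, and 80.0 kb from that of Reg3g, with 37 over 7. Nearest in this sense means nearest start site and carries no evidence of contact. Over all 499 nearest genes tested the median log2 difference was -0.20, beside -0.21 for all genes. Of 1331 nearest genes in the authors' deposited table, 90 (6.76%) were higher in ENRI and 52 (3.91%) lower, beside 5.65% and 3.06% of all genes.

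Some stem cell and Wnt genes were hosts or nearest genes. Among all 24016 genes, 674 were hosts and 1963 were the nearest gene of a member. These counts stand beside this and the following gene lists, and no list was tested against them. Of 21 stem cell genes, Lgr5 was a host, and Cdca7, a Myc target, the Wnt receptor ligase gene Znrf3 and the RNA-binding protein gene Msi1 were nearest genes. Msi1 stood at 1.19 and 1.97 RPKM in WENRC and 0.0924 and 0.142 in ENRI, and Cdca7 at 4.15 and 4.22 against 0.994 and 0.439 RPKM. Znrf3 stood at 1.22 in both WENRC libraries and 0.434 and 0.230 RPKM in ENRI. All 3 were lower in both ENRI libraries, each with a limma adjusted p of 0.056, and the authors' deposited table gave log2 values of -3.49, -2.40 and -1.70. For the whole stem cell list the authors' deposited table had 15 of 21 genes lower and 0 higher, members or not, beside 3.06% and 5.65% of all genes.

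Among 20 Wnt target genes, Sp5, Lef1, Znrf3 and Apcdd1 were nearest genes beside the host Lgr5. The transcription factor gene Sp5 stood at 3.40 and 3.51 RPKM in WENRC and 2.96 and 4.34 in ENRI, overlapping. Lef1, which carries Wnt signals to DNA, was the nearest gene of 2 members and stood at 0.125 in both WENRC libraries and at 0.0533 and 0.106 RPKM in ENRI. Of the 19 Wnt list genes in the authors' deposited table, 7 were lower and 0 higher, beside 3.06% and 5.65% of all genes.

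None of the 28 enterocyte genes was a host, and Apoa4, Apob and Ada were nearest genes of 1 member each. Apoa4 stood at 10.3 and 3.48 RPKM in WENRC and 254 and 286 in ENRI (limma difference 5.36, SE 0.579, adjusted p = 0.056). Apob, the structural apolipoprotein of chylomicrons, stood at 4.77 and 2.89 against 28.1 and 26.3 RPKM (limma difference 2.71, SE 0.305, adjusted p = 0.056). Ada, which deaminates adenosine, stood at 1.19 and 1.22 against 2.93 and 0.747 RPKM and overlapped. The Apob region lay 70.9 kb from the gene start and 180 bp from a WENRC region.

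Among the 10 goblet genes, 1 was a host and 1 other was a nearest gene. Spdef, a goblet cell transcription factor gene, hosted 1 member 13.1 kb from its start and stood at 0.526 and 0.432 RPKM in WENRC and 0.315 and 0.454 in ENRI. Atoh1, the switch to the secretory fate, was nearest to 2 members and stood at 0.296 and 0.569 against 0.394 and 0.516 RPKM. The media overlapped for both genes. No gene of the Paneth list was a host or a nearest gene.

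Of 17 enteroendocrine genes, Chga, Neurog3, Neurod1 and Insm1 were nearest genes. Neurog3, which starts endocrine differentiation, stood at 0.763 and 0.259 RPKM in WENRC and 0.0409 and 0.0380 in ENRI, from 37 and 3 recovered reads. Insm1, a zinc finger factor gene downstream of it, stood at 0.269 and 0.465 against 0.0568 and 0.105 RPKM. Chga, a granule protein of mature endocrine cells, stood at 0.739 and 0.591 against 0.802 and 0.901 RPKM. In the authors' deposited table Neurog3 was lower in ENRI (log2 value -3.41, FDR 0.0205), and the other 3 had FDRs from 0.129 to 0.522.

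Of 6 tuft cell genes, Dclk1 and Avil hosted 1 member each. Avil, an actin-bundling protein gene, stood at 1.05 and 1.10 RPKM in WENRC and 0.706 and 0.425 in ENRI, a limma difference of -0.58 (SE 0.172, adjusted p = 0.0905). Dclk1 stayed under 0.03 RPKM in every library over its 297 kb.

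Of 35 developmental transcription factor genes, a class where H3K27me3 is classically found, 10 were hosts or nearest genes, with 18 members. The list was not silent as a whole. Its sums were 48.7 and 49.1 RPKM in WENRC and 37.5 and 42.7 RPKM in ENRI, with 2 genes at 0 throughout. Pax7, Tbx5 and Tbx15 were hosts, and Pax3, Nkx6-1, Otx2, Irx1, Irx3, Meis1 and Nr2f2 nearest genes. Pax7, a muscle stem cell factor gene, stayed at or under 0.0100 RPKM and Tbx5, a heart and forelimb factor gene, at or under 0.0321 RPKM in every library. The nearest promoters of the members at Pax3, Pax7, Nkx6-1, Otx2, Tbx5 and Tbx15 were in the broad lists of both media, so the ENRI-only regions lay in the surroundings of promoters called in both. Both endothelial receptor genes Kdr and Flt1 were hosts, at or under 0.0502 RPKM. Of 37 neural genes, Cntnap2, Macrod2 and Tenm2, all very long, hosted 1 member each, and the 11 genes of the PRC2 list hosted none.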

How the data were processed

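Peak lists of H3K27me3 (1 ChIP-seq library per medium, 29839015 tags in ENRI and 31443300 in WENRC) and 1 GRO-seq table (2 libraries per medium) were used; H3 and input files were not analysed here. Per the file headers, the authors called regions per library with HOMER against the input of the same medium, at a fold of 4 over input and over the surrounding 10000 bp; the broad search used windows of 1000 bp and a minimum distance of 10000 bp. The submitters' processing notes name HOMER 4.3, Bowtie, Bowtie2, edgeR and mm9. Deposited region values are signal (tags per 10000000), control tags, the ratio of scaled ChIP tags over input (fold), the p-value against input and a score (tags in the best window). The deposited GRO-seq table gives signal (reads scaled to equal column sums) and per the file headers the authors' edgeR log2 fold change, p-value and FDR with batch as a term. The coordinates are printed as the lists give them. No genome of this build was used, so exons, introns and base sequence are not described.

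A region was inside a gene body when it overlapped a transcript of the table by 1 bp. The longest transcript stood for each of 24016 gene symbols, and RPKM was scaled reads per kb, relative to the column total. Whole reads came out of 100% of low values in every library (tolerance 0.1 reads), 9245915 to 29128101 reads per library; these recovered counts stand in for raw ones. A further 4 columns of per-sample values, RPKM by the authors, went unused. limma 3.58.1 (R 4.3.3) tested log2(RPKM + 0.5) for genes with at least 0.5 RPKM in 2 libraries, with Benjamini-Hochberg adjustment over 11602 genes. edgeR 4.0.16 and DESeq2 1.42.0 on recovered reads were alternatives. The fits were tested on simulated data. Members, lists and named genes were chosen with earlier results of these data known, and 74 genes were named by a rule: most tags, highest fold, longest, most members in a gene, highest RPKM, largest changes, and lists. The batch numbers of the header pair the libraries; deviations of libraries of 1 batch correlated at 0.0126 over 11602 genes. The columns could not be tied to a mouse. Intervals cover counting error only, and reads may include PCR copies.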

Additional observations from a re-analysis of the deposited data

How the results depend on the processing

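The member count of 2643 became 1504 when no WENRC region was allowed within 5 kb, 457 at a fold of at least 6 and 632 with at least 10 control tags, and stayed within 1.5 times under the other 6 choices. The share inside gene bodies was 37.4% at a fold of at least 6 and between 33.4% and 35.6% under the other 10. Those 10 settings draw largely on the same regions. The median host level lay between 0.0238 and 0.0324 RPKM under all 5 alternatives run.

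Calls depended on the fit. Against 0 host genes by limma, 17 were called with at least 10 recovered reads, 3 after quantile normalization, 5 by edgeR, 5 by edgeR with the replicate block, 8 by DESeq2, and, with at least 10 reads, 17 by edgeR with the block and 47 by DESeq2; the last 2 were added after seeing the data. Leaving out 1 library gave 0 to 20 host calls, the 20 without ENRI replicate 1 and 2 without ENRI replicate 2; the lone library left in an arm is then assumed to vary like the others. Against 2 nearest genes, 1 was called at a pseudocount of 0.1, 0 with no filter, 80 with at least 10 reads, 42 after quantile normalization, 0 with the replicate block, 48 by edgeR, 56 by edgeR with the block, 147 by DESeq2, 33 and 138 by the added edgeR and DESeq2 fits, and 0 for members with a fold of at least 6. Leaving out 1 library gave 0 to 270 nearest gene calls, 270 without ENRI replicate 1 and 37 without ENRI replicate 2. In limma the block changed no other call of a host or nearest gene; in edgeR it moved Znrf3 from an adjusted p of 0.0501 to 0.0419.

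The median host difference was -0.45 at a pseudocount of 0.1 and lost its sign with no filter (0.0036), at least 10 reads (0.0035), quantile normalization (0.037), and the added edgeR (0.28) and DESeq2 (0.41) fits. Without 1 library it ran from -0.42 to -0.16. Within batches it was -0.16 and -0.39. The nearest gene median was -0.015 with no filter, -0.046 with at least 10 reads, -0.021 after quantile normalization, -0.051 after median centring, -0.031 by edgeR, -0.045 with the block in edgeR, -0.00051 by DESeq2, and 0.026 and 0.095 in the added fits. Without 1 library it ran from -0.29 to -0.13, and within batches it was -0.14 and -0.26. The fits with at least 10 reads or no filter test more low genes; otherwise the cause was not tested. With 1 ChIP library per medium and 41 tags in a median member, depth limits every single region.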

Other observations

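Host genes whose members had no WENRC region within 5 kb numbered 439, with a median of 0.0281 RPKM over the 4 libraries. Of these, 36 in the authors' deposited table (8.20%) were higher in ENRI and 8 (1.82%) lower, where all hosts had 7.27% and 1.93% and all genes 5.65% and 3.06%; the same shares stand beside the subsets that follow. Of the 156 host genes with at least 2 members, 15 (9.62%) were higher and 2 (1.28%) lower in the authors' deposited table, and 137 averaged under 0.1 RPKM. Of the 156 host genes with a member at a fold of at least 6, 7 (4.49%) were higher and 2 (1.28%) lower in the authors' deposited table. Inside regions were nearest to the start of a host gene in 594 cases and to that of another gene in 324.

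Further genes were nearest to several members. Phactr1, an actin and phosphatase regulator gene, was nearest to 7, of which 5 were inside a gene body, and Rora, a nuclear receptor gene, to 5, all inside. Phactr1 stood at 0.00397 and 0.0203 RPKM in WENRC and 0.00292 and 0.0235 in ENRI, and Rora at 0.00727 and 0.0278 against 0.00725 and 0.0245 RPKM. Both promoters were in the broad lists of both media. They were singled out after their counts were seen.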
